A study of Mus musculus with 24 samples.

Results

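Wild-type (WT) mouse embryonic fibroblasts were compared after and before transformation with Ras and Myc, in the RNA that travelled with heavy polysomes. The members were all arrays whose titles gave polysomal RNA of transformed WT cells (3 arrays) or of untransformed WT cells (3 arrays), 6 of the 24 arrays of the series. Both states came from the same 3 WT embryos, numbered 1 to 3 in the titles, so each transformed culture had an untransformed partner. The remaining 18 arrays held total RNA of the same WT cultures and both fractions of cells from Eif4e+/- embryos, which have 1 intact allele of the cap-binding factor eIF4E.

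The transformed WT cells carried Ras and Myc and no other change named in the labels; the untransformed WT cells were early passage primary cultures. All cells derived from E13.5 embryos, were kept in DMEM containing 10% serum and were taken during exponential growth. Cycloheximide at 100 µg/ml, which halts elongating ribosomes on mRNA, was used before lysis, and cytoplasmic extracts were spun through a 10 to 50% sucrose gradient. The fractions of high molecular weight were kept, and the amplified RNA was measured on whole-transcript Affymetrix arrays. The labels do not say which Ras gene was used, how the genes were delivered, or whether a transformed culture was a clone or a pool. The introduced genes and the time in culture separate the states together, and their parts cannot be told apart.

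An mRNA enters the heavy polysome fraction when several ribosomes translate it at once, so its level there depends both on how much of the mRNA a cell holds and on how well it is loaded with ribosomes. Ras signals through the ERK and PI3K pathways to growth genes and to the cap-binding machinery, and Myc is a transcription factor that binds E-boxes (CACGTG) and drives ribosome production. Fibroblasts in culture normally build actin stress fibres through serum response factor (SRF), which binds the CArG box, and secrete a collagen-rich matrix; loss of both is a known feature of transformed fibroblasts.

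The values were log2 RMA intensities, and every change is given as log2 transformed minus untransformed, so 1 unit is a doubling. RMA brings arrays to a common level (means of 3.78 to 3.79 on the 6 polysomal arrays here), so a change is in an mRNA's share of the polysomal pool and says nothing of the pool's size. After a filter on low values, 14830 genes were kept. A gene was called where limma, fitted across all 14830 genes with the embryo as a block, gave a p under 0.05 after Benjamini-Hochberg adjustment. The fit held all 12 polysomal arrays, so each SE and p draws on a spread shared by WT and Eif4e+/- cells. The WT changes themselves come from the 6 WT arrays. Fewer cells of a type and less RNA per cell cannot be told apart in such bulk samples.

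Embryo 3 stood apart before any gene was considered. Across the kept genes, the changes in embryos 1 and 2 correlated at 0.63, whereas the changes in embryo 3 correlated with those of embryo 1 at 0.02 and of embryo 2 at -0.00. These are descriptions across genes of the same arrays, and genes are not independent replicates. The SD of log2 values over the kept genes of an array was 1.39 in transformed and 1.16 in untransformed cells of embryo 1, and 1.44 and 1.32 in embryo 2. In embryo 3 it was 1.26 in transformed and 1.46 in untransformed cells, so the spread ran the other way. Among the 3708 genes with the highest polysomal level, the median change was 0.58 in embryo 1, 0.26 in embryo 2 and -0.28 in embryo 3; array spread and level thus moved with the sign of the change, and their part in the results was not tested.

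**Figure D1:**
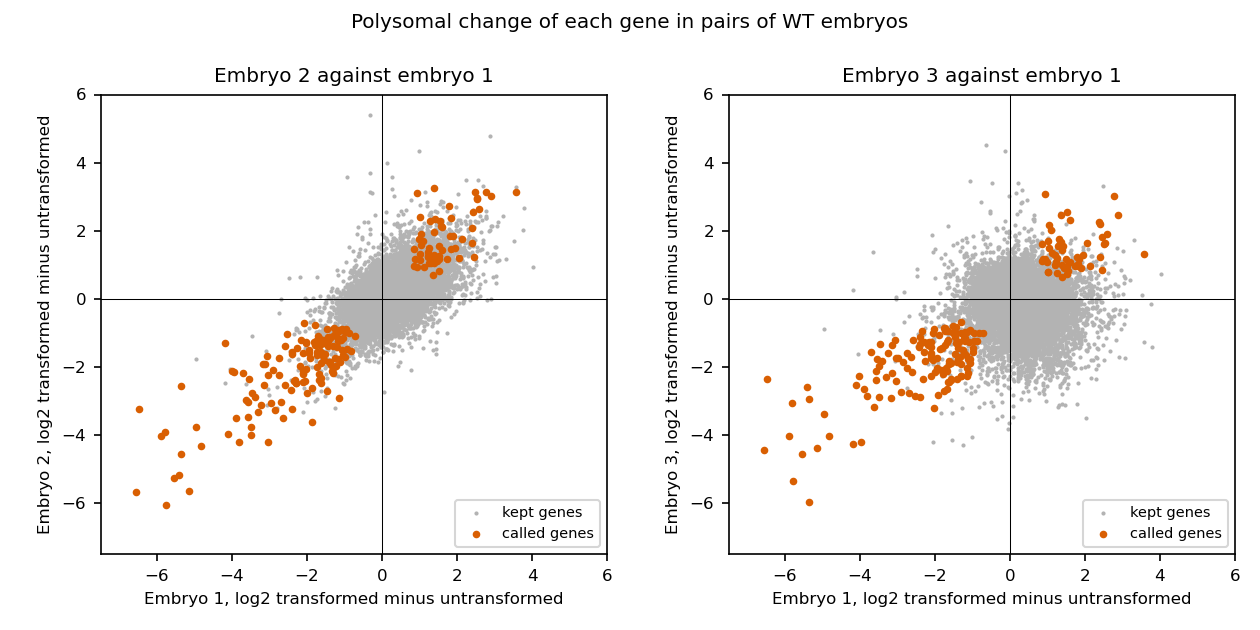
Polysomal change of every kept gene (grey) and of the 190 called genes (orange) in embryo 2 against embryo 1 (left) and in embryo 3 against embryo 1 (right), log2 transformed minus untransformed on both axes. Most genes lie along a rising cloud on the left (correlation 0.63) and in a round cloud on the right (0.02). The called genes keep to the lower left and upper right in both, which their selection favours.

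In the fit, 56 genes were called higher in transformed cells, 0.378% of the genes tested, and 134 were called lower, 0.904%. All 190 moved the same way in the 3 embryos, and in 187 of them the 3 transformed arrays did not overlap the 3 untransformed arrays. Over all kept genes the groups did not overlap in 8.66% with transformed cells higher and in 7.28% with them lower. The fit favours genes whose embryos agree, so the agreement of called genes follows in part from their selection. Large changes were mostly losses: 58 of the 134 falls were over 2 log2 units, against 11 of the 56 rises. Over all kept genes the median change was 0.02 and 52.0% of the changes were positive. These values and the shares called are the background for the polysomal list counts with all embryos that follow. Without the embryo block 154 genes were called higher and 223 lower, and with the WT arrays alone 2 and 9.

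The calls depended on which embryos were present. Without embryo 1 only 4 genes were called higher and 17 lower, and without embryo 2 only 2 and 23. Without embryo 3 the counts were 1293 higher and 442 lower, and these held all 190 genes. The 190 genes kept their sign each time, which was fixed in advance, since each had moved the same way in all 3 embryos. The change of none of them moved by over 1.5 times, but the calls favour genes whose embryos agree. Still called after each embryo was left out in turn were 14 genes, all lower: Myl9, Cnn1, Tagln, Acta2, Thbs1, Actg2, Timp3, Tll1, Ccn2, Vgll3, Tgfb1i1, Lurap1l, Igf2 and Tpm2 (named after their values were seen). Among them were 8 of the contractile and SRF target genes. Every other call for the polysomal change in WT cells in the paragraphs that follow was lost without embryo 1, without embryo 2 or without either.

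The largest falls were in the contractile apparatus. Myl9, the regulatory light chain of smooth muscle and non-muscle myosin, stood at 4.59, 4.33 and 5.36 in transformed cells of embryos 1 to 3, against 10.36, 10.37 and 10.72 in untransformed cells. The arrays were more than 5 units apart in every embryo. The fitted change was -5.72 ± 0.25 (3 WT embryos, SE from the fit of both genotypes), 52.8-fold lower (limma adjusted p = 0.000245). Acta2, smooth muscle α-actin, was at 5.90, 5.82 and 7.30 in transformed cells and at 11.45, 11.07 and 11.86 in untransformed cells. It was among the brightest genes of the untransformed polysomal pool and fell by 5.12 (SE 0.28, adjusted p = 0.000416).

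Tagln, the actin-bundling protein SM22α, had nearly the same transformed value in each embryo, 4.0, 4.03 and 3.97, against 9.36, 8.59 and 9.93 in untransformed cells, a change of -5.29 ± 0.28 (adjusted p = 0.000416). Cnn1, calponin, was at 3.06, 3.78 and 5.72 in transformed cells and 9.61, 9.46 and 10.15 in untransformed cells, and its transformed value in embryo 3 stood well above the other two. Its change was -5.55 ± 0.40 (adjusted p = 0.00220). Actg2, smooth muscle γ-actin, was at 3.53, 3.61 and 4.79 in transformed cells and at 8.35, 7.93 and 8.81 in untransformed cells (-4.39 ± 0.25, adjusted p = 0.000416). The actin genes have near-identical coding sequences, and signal shared between their probe sets was not tested.

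Of the 28 measured contractile and SRF target genes, 14 were called lower and 0 higher, beside 0.904% and 0.378% of all genes. All 28 had a negative fitted change, with a median of -1.76 beside 0.02 over all genes, and in 25 the groups did not overlap, a pattern that 7.28% of all genes showed in that direction. The list median was -1.88, -0.97 and -1.90 in embryos 1 to 3, so embryo 3 was as large as embryo 1 here. Called lower were 8 of these genes without embryo 1, 9 without embryo 2 and 17 without embryo 3. Over all kept genes those counts were 17, 23 and 442. Ccn2 and Ccn1, matricellular proteins and SRF and YAP targets, changed by -3.34 ± 0.30 and -2.11 ± 0.32. Tpm2, a tropomyosin, changed by -2.15 ± 0.20, Actn1, an actin crosslinker of stress fibres, by -2.14 ± 0.35, and Cnn2, a calponin of non-muscle cells, by -2.33 ± 0.32. Among members that did not pass were Vcl (vinculin, -1.64, adjusted p = 0.0617), Tpm1 (-1.02, adjusted p = 0.0709) and Srf itself (-0.35, adjusted p = 0.530).

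**Figure D2:**
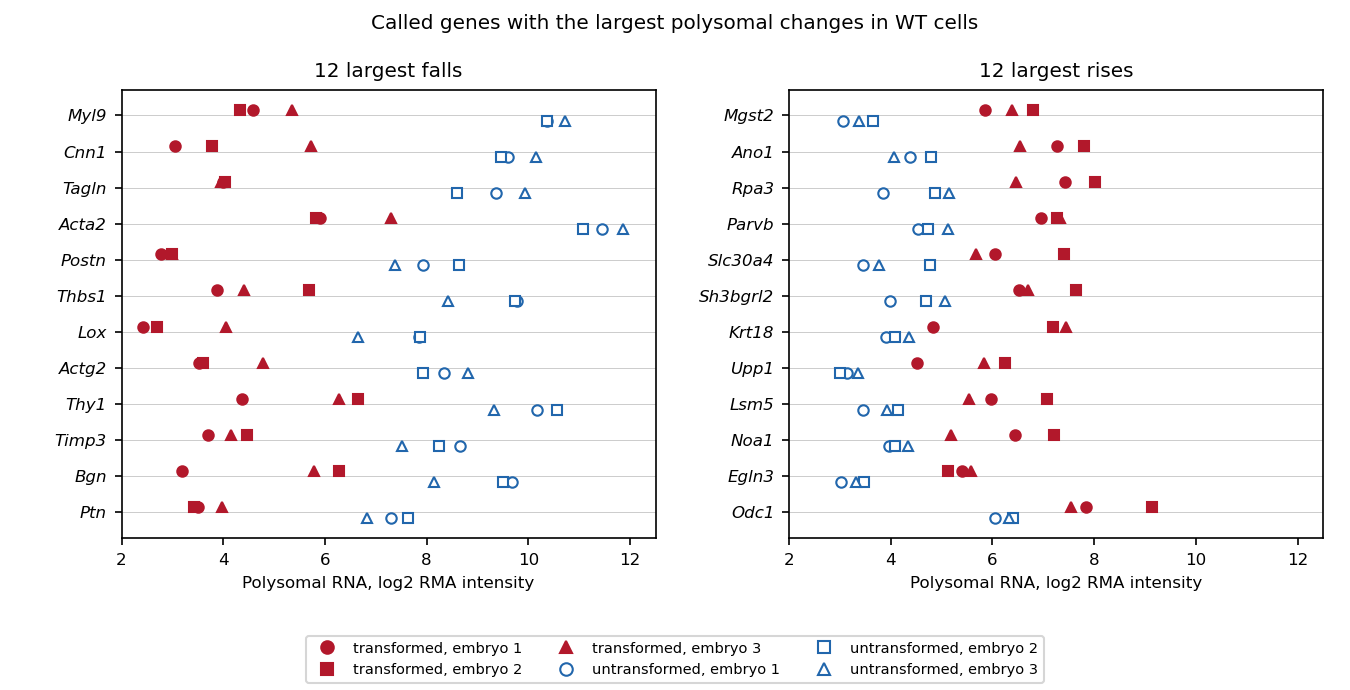
Polysomal log2 RMA intensity on each of the 6 WT arrays for the 12 called genes that fell most (left) and the 12 that rose most (right), with transformed cells in filled red and untransformed cells in open blue symbols, 1 shape per embryo. Genes were picked for size and for groups that do not overlap; Myl9 spans 4.33 to 5.36 in transformed and 10.36 to 10.72 in untransformed cells.

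Promoters were read for the CArG box, since SRF targets led the falls. The motif searched was CC, then 6 bases that are each A or T, then GG, which reads alike on both strands, in RefSeq windows (GRCm38.p6) of 250 bases before to 50 after each gene start. Of the 134 genes called lower 93 had a window, and 8 of these held a CArG box, 8.60%: Acta1, Cnn2, Egr2, Fhl1, Igf2, Lurap1l, Myl9 and Rsu1. Outside the contractile list, which does not hold Acta1, the share was 7.23% (6 of 83 genes). Within that list, called or not, it was 20.8% (5 of 24 genes). It was 1.61% over all kept genes with a window and 0 of 44 among genes called higher. These shares describe letters in a window and carry no test, and a window without the motif says nothing of sites elsewhere.

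The 250 bases before the start are shown for 5 of these 8 genes. Egr2, Igf2 and Rsu1 also held the motif in their window and are not shown. The CArG box is in capitals, and the sequences, from RefSeq on GRCm38.p6, run 5′ to 3′ on the gene's strand. The 5 genes were chosen after the values were seen.
Myl9, chr2:156775214-156775463, plus strand: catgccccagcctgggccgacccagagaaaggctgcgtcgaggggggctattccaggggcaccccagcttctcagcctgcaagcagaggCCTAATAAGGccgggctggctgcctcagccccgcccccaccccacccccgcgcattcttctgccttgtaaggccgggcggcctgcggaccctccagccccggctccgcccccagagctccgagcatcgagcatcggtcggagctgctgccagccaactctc
Cnn2, chr10:79988350-79988599, plus strand: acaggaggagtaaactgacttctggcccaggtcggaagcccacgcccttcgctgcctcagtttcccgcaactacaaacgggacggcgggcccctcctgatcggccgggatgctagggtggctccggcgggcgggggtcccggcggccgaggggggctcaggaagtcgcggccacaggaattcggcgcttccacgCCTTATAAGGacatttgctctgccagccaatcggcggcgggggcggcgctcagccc
Lurap1l, chr4:80910436-80910685, plus strand: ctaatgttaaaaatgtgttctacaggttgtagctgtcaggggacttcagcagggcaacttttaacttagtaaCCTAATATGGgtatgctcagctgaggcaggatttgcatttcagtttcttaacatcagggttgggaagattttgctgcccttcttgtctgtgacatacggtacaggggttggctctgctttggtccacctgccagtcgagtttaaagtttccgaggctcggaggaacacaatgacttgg
Fhl1, chrX:56779433-56779682, plus strand: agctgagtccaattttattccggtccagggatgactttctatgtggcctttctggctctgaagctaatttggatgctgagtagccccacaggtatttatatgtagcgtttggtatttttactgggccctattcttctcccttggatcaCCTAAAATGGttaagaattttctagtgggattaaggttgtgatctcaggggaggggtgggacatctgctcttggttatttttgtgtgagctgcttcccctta
Acta1, chr8:123894776-123895025, minus strand: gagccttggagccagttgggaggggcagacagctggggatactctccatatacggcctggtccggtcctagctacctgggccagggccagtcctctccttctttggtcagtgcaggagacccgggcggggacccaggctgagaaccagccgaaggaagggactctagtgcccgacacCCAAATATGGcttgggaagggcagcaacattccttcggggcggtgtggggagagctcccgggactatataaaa

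The box began 161 bases before the Myl9 start, 56 before Cnn2, 178 before Lurap1l, 102 before Fhl1 and 73 before Acta1. Lurap1l was at 3.68, 3.70 and 4.01 in transformed cells and 6.0, 6.08 and 6.36 in untransformed cells (-2.35 ± 0.19, adjusted p = 0.00382). Its 3 embryos were closer together than those of most genes named here. Fhl1, a LIM domain protein of muscle, was at 3.41, 3.19 and 3.08 in transformed cells and 5.44, 5.23 and 6.29 in untransformed cells (-2.43 ± 0.29, adjusted p = 0.0128). Acta1, skeletal muscle α-actin, was at 4.12, 4.45 and 5.13 in transformed cells and 7.82, 6.63 and 6.70 in untransformed cells (-2.49 ± 0.40, adjusted p = 0.0298).

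Matrix proteins formed the second large group of falls. Among 42 measured glycoproteins, proteoglycans and crosslinkers, 11 were called lower and 0 higher, beside 0.904% and 0.378% of all genes. In this list 36 changes were negative and the median was -0.92. That median was -1.31 in embryo 1, -1.25 in embryo 2 and -0.24 in embryo 3, so the third embryo lost far less as a group. Without embryo 3, 21 of the genes were called lower, beside 442 of all kept genes. Without embryo 1 or embryo 2 only 1 was. Postn, periostin, a matricellular protein of mesenchyme, was at 2.78, 3.00 and 3.00 in transformed cells and 7.93, 8.64 and 7.37 in untransformed cells (-5.06 ± 0.60, adjusted p = 0.0124). Thbs1, thrombospondin 1, which activates latent TGF-β, was at 3.89, 5.69 and 4.40 in transformed cells and 9.78, 9.73 and 8.42 in untransformed cells (-4.65 ± 0.45, adjusted p = 0.00649). In both genes the states were more than 4 units apart in every embryo, embryo 3 included.

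Lox, the enzyme that crosslinks collagen and elastin, was at 2.42, 2.70 and 4.06 in transformed cells and 7.84, 7.87 and 6.64 in untransformed cells, with the smallest gap in embryo 3 (-4.39 ± 0.59, adjusted p = 0.0160). Bgn, the proteoglycan biglycan, was at 3.19, 6.28 and 5.79 in transformed cells and 9.67, 9.50 and 8.15 in untransformed cells (-4.02 ± 0.70, adjusted p = 0.0399). Tnc, tenascin C, fell by 2.83 (SE 0.30) and Igfbp7 by 3.21 (SE 0.38). Sparc stayed one of the brightest matrix mRNAs on the polysomal arrays of both states, at 9.0, 9.65 and 9.31 in transformed cells and 10.44, 10.76 and 10.32 in untransformed cells, with a change of -1.19 ± 0.20 (adjusted p = 0.0355).

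Of 23 collagen chains, 2 were called lower, Col8a1 (-2.34 ± 0.33, adjusted p = 0.0184) and Col1a2 (-1.77 ± 0.32, adjusted p = 0.0474), while 19 changes were negative and the median was -0.59. Col1a2, a chain of type I collagen, was at 4.47, 4.32 and 4.65 in transformed cells and 6.15, 6.69 and 5.92 in untransformed cells; its partner Col1a1 changed by -1.54 ± 0.29 and just missed the threshold (adjusted p = 0.0532). Among 25 proteases and their inhibitors, 3 were called lower: the inhibitors Timp3 (-4.03 ± 0.39, adjusted p = 0.00649) and Timp1 (-1.85 ± 0.22, adjusted p = 0.0128) and the metalloprotease Adam12 (-1.52 ± 0.21, adjusted p = 0.0179). Timp3 was at 3.70, 4.48 and 4.15 in transformed cells and at 8.65, 8.23 and 7.52 in untransformed cells.

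Adhesion receptors split. Of 28 integrins and cadherins, Cdh11, the cadherin of mesenchymal cells, was at 3.17, 4.08 and 4.25 in transformed cells and 7.27, 8.03 and 6.76 in untransformed cells (-3.52 ± 0.43, adjusted p = 0.0129). Cdh2, N-cadherin, changed by -1.70 ± 0.26 (adjusted p = 0.0251) and Itgb1, the integrin β chain shared by most collagen and fibronectin receptors, by -1.72 ± 0.27 (adjusted p = 0.0268). Itga6, an integrin chain of laminin receptors, rose: it was at 4.67, 5.44 and 4.41 in transformed cells and 3.67, 3.67 and 3.31 in untransformed cells (1.29 ± 0.20, adjusted p = 0.0268). The median of the list was -0.18.

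Secreted signals were lower where they were called. In the TGF-β, BMP and SMAD list, 4 of 35 genes were called lower and 0 higher: the ligands Tgfb3 (-2.57 ± 0.27) and Inhba, an activin subunit (-3.24 ± 0.52), the binding protein Fstl1 (-2.65 ± 0.47) and Ltbp1, which stores latent TGF-β in the matrix (-1.27 ± 0.23). Tgfb3 was at 3.58, 4.47 and 4.04 in transformed cells and 6.49, 6.55 and 6.76 in untransformed cells (adjusted p = 0.00996). The list median was close in the 3 embryos, at -0.37, -0.40 and -0.56. Of 27 growth factors 3 were called lower: Igf2, Fgf7 and Ptn (pleiotrophin).

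Igf2, a fetal growth factor expressed from the paternal allele, was at 3.82, 3.51 and 3.74 in transformed cells and 5.81, 6.27 and 5.89 in untransformed cells (-2.30 ± 0.22, adjusted p = 0.00649). Ptn was at 3.50, 3.43 and 3.97 in transformed cells and 7.30, 7.64 and 6.83 in untransformed cells (-3.62 ± 0.65, adjusted p = 0.0462). Fgf7, a mesenchymal growth factor for epithelium, was at 3.27, 5.17 and 5.44 in transformed cells and 7.28, 7.27 and 7.70 in untransformed cells (-2.79 ± 0.39, adjusted p = 0.0180). Of 19 chemokines and interleukins, Cxcl12 (-2.61 ± 0.34), Cxcl14 (-2.31 ± 0.36) and Csf1 (-1.45 ± 0.22) were called lower. Folding factors of the secretory pathway had a median of -0.38 over 26 genes, with 1 called lower, Manf, a secreted ER stress factor (-1.03 ± 0.17, adjusted p = 0.0298).

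The genes that rose belonged to fewer recognisable groups. Mgst2, a microsomal glutathione S-transferase, led them, at 5.85, 6.79 and 6.38 in transformed cells and 3.06, 3.65 and 3.37 in untransformed cells (2.98 ± 0.29, 7.88-fold, adjusted p = 0.00649). Ano1, a calcium-activated chloride channel, was at 7.26, 7.80 and 6.54 in transformed cells and 4.37, 4.79 and 4.07 in untransformed cells (2.80 ± 0.38, adjusted p = 0.0160). Rpa3, the smallest subunit of the replication protein that coats single-stranded DNA, was at 7.43, 8.02 and 6.47 in transformed cells and 3.85, 4.88 and 5.14 in untransformed cells (2.68 ± 0.39, adjusted p = 0.0199). In Mgst2 and Ano1 the embryos were alike, whereas the rise of Rpa3 was smallest in embryo 3.

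Parvb, an adaptor at integrin adhesions, rose by 2.39 (SE 0.37), the zinc transporter Slc30a4 by 2.38 (SE 0.23), Sh3bgrl2 by 2.38 (SE 0.29) and Upp1, uridine phosphorylase, by 2.36 (SE 0.32). Lsm5, a subunit of the ring that binds the U6 spliceosomal RNA, rose by 2.36 (SE 0.34, adjusted p = 0.0199). Krt18, a keratin of simple epithelia, was at 4.84, 7.20 and 7.44 in transformed cells and 3.91, 4.08 and 4.36 in untransformed cells (2.37 ± 0.42, adjusted p = 0.0451), with embryo 1 well below the others. Krt8, its usual partner, was at 5.14, 5.64 and 3.88 in transformed cells and 4.42, 4.44 and 4.62 in untransformed cells and did not pass (adjusted p = 0.735).

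Of 27 measured glycolysis and hypoxia genes, 2 were called higher, 16 changes were positive and 11 negative, and the median was 0.31. Egln3, the oxygen-sensing prolyl hydroxylase PHD3, was at 5.41, 5.12 and 5.58 in transformed cells and 3.02, 3.47 and 3.32 in untransformed cells (2.10 ± 0.20, adjusted p = 0.00649). Pdk1, the kinase that shuts pyruvate out of mitochondria, rose by 1.55 (SE 0.24, adjusted p = 0.0245). Adm, the hypoxia-induced peptide adrenomedullin, was lower on every transformed array, at 3.30, 3.28 and 3.48 in transformed cells and 5.21, 5.03 and 4.02 in untransformed cells, and did not pass (adjusted p = 0.0799). Slc16a1, the lactate transporter MCT1, which is not on that list and was named after its value was seen, was at 5.10, 5.38 and 4.96 in transformed cells and 3.81, 3.10 and 3.41 in untransformed cells (1.71 ± 0.23, adjusted p = 0.0162).

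Slc16a1 was 1 of 3 genes called higher, of 44 with a promoter window, that held the E-box CACGTG, a motif that reads alike on both strands; the others were Ctc1 and Med31 (named after the search). The share was 6.82% among genes called higher, 7.53% among genes called lower and 10.9% over all kept genes. Among the MYC-driven ribosome biogenesis genes described later, 10 of 38 held it, 26.3%. The Slc16a1 window is shown with the E-box in capitals, which began 200 bases before the start.
Slc16a1, chr3:104638414-104638663, plus strand: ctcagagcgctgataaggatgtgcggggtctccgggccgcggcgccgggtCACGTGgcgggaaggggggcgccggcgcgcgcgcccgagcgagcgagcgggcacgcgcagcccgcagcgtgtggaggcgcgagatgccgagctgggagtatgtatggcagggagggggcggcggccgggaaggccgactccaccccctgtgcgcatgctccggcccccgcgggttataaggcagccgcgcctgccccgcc

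Replication-dependent histones were the list with the most genes called higher. Of 26 measured, 5 were called, beside 0.378% of all genes: H4c6, H2bc21, H4c3, H2bc9 and H4c4. In this list 24 changes were positive with a median of 0.65, beside 52.0% and 0.02 over all genes. Replication-dependent histone mRNAs end in a stem-loop in place of a poly(A) tail and are made in S phase. H2bc9 was at 8.79, 8.81 and 8.96 in transformed cells and 7.58, 7.44 and 7.67 in untransformed cells, so the arrays of a state lay close together (1.29 ± 0.22, adjusted p = 0.0358). H4c6 was at 7.80, 7.72 and 7.49 in transformed cells and 6.57, 6.46 and 6.40 in untransformed cells (1.19 ± 0.16, adjusted p = 0.0162).

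H4c4, the brightest of the 5, was at 11.32, 11.15 and 11.16 in transformed cells and 10.45, 9.98 and 9.99 in untransformed cells (1.07 ± 0.19, adjusted p = 0.0467). The list median was 0.12, 0.70 and 1.03 in embryos 1 to 3, the reverse of the order seen in most growth lists, and its total RNA median was 0.02. With limma's trend and robust options 1 of the 5 was called, and without embryo 1 or embryo 2 none. Histone genes of a family are near-identical, and signal shared between their probe sets was not tested. Genes of S phase and DNA replication (43) had 1 gene called higher, Pold2, a subunit of DNA polymerase δ (1.60 ± 0.26, adjusted p = 0.0306). Their medians were 0.55, 0.51 and -0.57 in embryos 1 to 3, with 36, 41 and 8 of 43 changes positive. The median of the fit was 0.15 with all embryos and 0.57 without embryo 3, and it turned to -0.10 without embryo 1 and -0.13 without embryo 2.

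Odc1 and Fth1 rose in the polysomal pool with little change in total RNA. Odc1, ornithine decarboxylase, the first enzyme of polyamine synthesis and a Myc target whose mRNA has a structured leader, was at 7.83, 9.14 and 7.54 in transformed cells and 6.04, 6.41 and 6.32 in untransformed cells (1.91 ± 0.27, 3.76-fold, adjusted p = 0.0194). Its total RNA was at 12.07, 12.76 and 12.37 in transformed cells and 12.24, 11.85 and 12.04 in untransformed cells. Fth1, the ferritin heavy chain, whose mRNA carries an iron-responsive element that blocks translation when iron is low, was at 7.04, 7.50 and 8.56 in transformed cells and 5.45, 6.04 and 6.25 in untransformed cells (1.78 ± 0.22, 3.44-fold, adjusted p = 0.0129). Its total RNA lay between 12.68 and 12.98 in transformed and between 12.71 and 12.83 in untransformed cells.

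In both genes the polysomal groups were apart and the total RNA groups overlapped. The polysomal change exceeded the total RNA change by 1.56 ± 0.24 for Odc1 (adjusted p = 0.0292) and 1.70 ± 0.20 for Fth1 (adjusted p = 0.0140). With all 24 arrays quantile normalised together, which gives both fractions 1 distribution, these differences were 0.71 (adjusted p = 0.359) and 1.05 (adjusted p = 0.150) and were no longer called, and both calls were also lost without embryo 1 and without embryo 2. Total RNA of both genes lay near the top of the intensity range, and the part of this in the difference was not tested. The other measured polyamine genes, 5 of them, had positive changes that were not called, and Srxn1, sulfiredoxin, was the other called member of the 34 redox genes (1.09 ± 0.20, adjusted p = 0.0456).

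Genes of growth and translation were mostly higher in embryos 1 and 2 and lower in embryo 3. The 44 measured MYC-driven ribosome biogenesis genes had median changes of 1.08 in embryo 1, 1.31 in embryo 2 and -0.84 in embryo 3. Positive changes numbered 43, 44 and 7 of 44 in the 3 embryos. The mean level over the list was 6.18, 6.21 and 5.31 in transformed cells and 5.13, 5.02 and 6.16 in untransformed cells, so embryo 3 was reversed in both states. In the fit with all embryos 1 gene was called higher, Nip7, a pre-ribosome factor, at 8.15, 7.91 and 7.65 in transformed cells and 6.02, 6.15 and 6.68 in untransformed cells (1.62 ± 0.29, adjusted p = 0.0462); without embryo 3, 27 were.

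The same split held for several neighbouring lists, none of whose members was called with all embryos. The 16 TOP mRNAs outside the ribosome, whose 5′ ends tie their loading to mTOR, had medians of 0.91, 0.83 and -0.82. The 29 other translation factors had 1.00, 0.92 and -0.57, the 28 proteasome subunits 0.91, 0.73 and -0.35, and the 19 aminoacyl-tRNA synthetases 0.75, 0.49 and -1.11. Genes of G2 and mitosis (38) had 0.42, 0.82 and -0.68. The median over the fit was 0.47 for ribosome biogenesis with all embryos, 1.20 without embryo 3, 0.14 without embryo 1 and 0.08 without embryo 2.

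**Figure D3:**
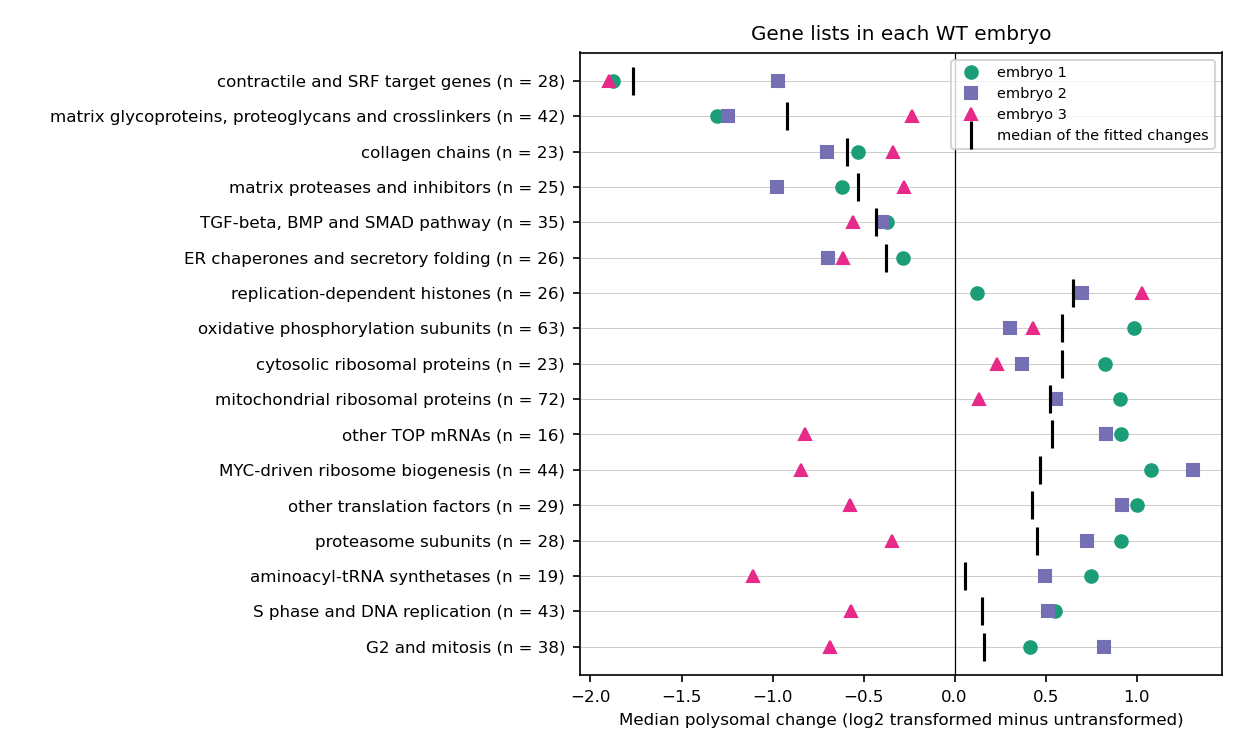
Median polysomal change (log2 transformed minus untransformed) of 17 gene lists in each WT embryo (coloured symbols) and in the fit (black bar), with the number of measured genes in brackets. Contractile and matrix lists are negative in all 3 embryos, while ribosome biogenesis stands at 1.08 and 1.31 in embryos 1 and 2 and at -0.84 in embryo 3.

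Mitochondrial and ribosomal protein lists were positive in all 3 embryos without a single call. The 63 nuclear-encoded oxidative phosphorylation subunits had medians of 0.98, 0.31 and 0.43, and 60 of the fitted changes were positive. In 27 of the 63 the groups did not overlap with transformed cells higher, beside 8.66% of all kept genes. Uqcrh, a subunit of respiratory complex III, was the member with the smallest p, at 10.91, 10.47 and 10.71 in transformed cells and 9.26, 9.81 and 9.47 in untransformed cells, and it did not pass (1.19 ± 0.24, adjusted p = 0.0666).

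The 72 mitochondrial ribosomal proteins had medians of 0.91, 0.56 and 0.13 with 67 positive changes, and the 23 measured cytosolic ribosomal proteins 0.82, 0.37 and 0.23 with 22 positive changes. The groups did not overlap in 26 of the 72 and in 8 of the 23. Rpl8 was at 8.84, 8.70 and 8.85 in transformed cells and 8.01, 7.93 and 7.63 in untransformed cells (0.94 ± 0.19, adjusted p = 0.0642). These lists hold many bright mRNAs, and bright genes as a class had a positive median in the fit (0.17 among the 3708 brightest), so their part in the list medians was not tested.

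Gas5, a TOP host gene of small nucleolar RNAs, was at 10.22, 10.01 and 10.18 in transformed cells and 8.76, 9.30 and 9.22 in untransformed cells and did not pass (1.04 ± 0.22, adjusted p = 0.0704). Snord47, a small nucleolar RNA whose gene lies within the Gas5 gene on chromosome 1, was called higher, and reads of the 2 transcripts cannot be told apart here. Eif4e, whose product binds the mRNA cap, was at 4.92, 5.47 and 4.68 in transformed cells and 4.19, 3.92 and 4.09 in untransformed cells, apart in all 3 embryos but not called (0.96 ± 0.29, adjusted p = 0.186). Its inhibitor Eif4ebp1 changed by 0.11 ± 0.24 (adjusted p = 0.917).

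The introduced oncogenes were only partly readable. The Myc probe set was lower, not higher, on every transformed array, at 5.89, 6.54 and 6.0 in transformed cells and 7.70, 6.89 and 8.26 in untransformed cells, and the change did not pass (-1.47 ± 0.36, adjusted p = 0.110). In total RNA of the same cultures the Myc change was -1.91 and was called lower (adjusted p = 0.00697). Whether the probe set reads the introduced Myc is not stated in the sources used here. Nras changed by -0.44 ± 0.20 (adjusted p = 0.387).

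Output genes of the RAS-ERK pathway were called in both directions. Of 33 measured, Fosl1, an AP-1 subunit, and Etv4, an ETS factor, were called higher, and Egr2, an immediate early factor, lower. Fosl1 was at 7.48, 7.11 and 7.25 in transformed cells and 6.09, 6.05 and 6.26 in untransformed cells (1.15 ± 0.17, adjusted p = 0.0245). Etv4 was at 6.21, 5.33 and 6.05 in transformed cells and 4.16, 4.14 and 4.42 in untransformed cells (1.63 ± 0.28, adjusted p = 0.0413). Egr2 was at 3.71, 3.29 and 4.08 in transformed cells and 5.28, 4.51 and 6.46 in untransformed cells (-1.72 ± 0.30, adjusted p = 0.0434). The list median was 0.50, at 0.59, 0.65 and 0.07 in embryos 1 to 3, and 25 of the 33 fitted changes were positive. The groups did not overlap in 13 with transformed cells higher and in 5 with them lower, beside 8.66% and 7.28% of all genes. Mxi1, an antagonist of Myc, was the 1 called gene among 15 Myc, Ras and partner genes (1.11 ± 0.20, adjusted p = 0.0490), and Btg2, an antiproliferative p53 target, the 1 called among 25 p53 targets (0.98 ± 0.17, adjusted p = 0.0377).

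The labelled cell type was checked against 25 measured genes of mesenchymal fibroblast identity. Of these, 17 had a negative change, with a median of -0.26. In polysomal RNA 2 were called lower, Thy1 and Col1a2, beside 0.904% of all genes. In total RNA 11 were called lower, beside 9.08% of all genes. Vim, the intermediate filament of mesenchymal cells, was bright throughout, at 9.11, 9.52 and 9.48 in transformed cells and 9.66, 9.33 and 10.35 in untransformed cells, and did not pass (adjusted p = 0.494). Thy1, a surface marker of fibroblasts, fell by 4.25 (SE 0.56, adjusted p = 0.0160), to 4.37, 6.65 and 6.28 in transformed cells, against 10.17, 10.56 and 9.33 in untransformed cells. Pdgfrb, a PDGF receptor of mesenchyme, was at 3.38, 3.35 and 3.54 in transformed cells and 5.02, 5.0 and 4.42 in untransformed cells and did not pass (adjusted p = 0.0872). The mean over the list was 4.39, 5.06 and 4.86 in transformed cells and 5.08, 5.35 and 5.12 in untransformed cells.

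Markers of other cell types were set beside 3.57, the array median of polysomal RNA in WT cells. The kept genes had a higher median polysomal level, 3.96. The list means lay between 3.15 and 3.31 in transformed and 3.26 and 3.64 in untransformed cells for macrophages (16 genes), between 3.27 and 3.4 in transformed and 3.36 and 3.66 in untransformed cells for endothelium (11), and between 3.38 and 3.59 in transformed and 3.72 and 3.92 in untransformed cells for neural cells (12). Each of these had 1 gene called lower: Lyz2 (-1.52), Flt1 (-1.19) and Ncam1 (-1.56). Lyz2, lysozyme of macrophages, was at 2.49, 2.69 and 2.51 in transformed cells and 3.85, 4.63 and 3.76 in untransformed cells. Ptprc, the defining leukocyte marker, was at 2.94, 2.81 and 3.03 in transformed cells and 3.29, 2.86 and 2.78 in untransformed cells. In total RNA 11 of the 16 macrophage and leukocyte genes were called lower, Lyz2 (-4.14) among them, beside 9.08% of all genes. The 1 gene called higher there was Cd14 (0.84, limma adjusted p = 0.0295), beside 7.62% of all genes. In polysomal RNA Cd14 changed by 0.80 and was not called (adjusted p = 0.258). The part of these marker genes in the results was not tested.

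The list means of skeletal and heart muscle markers (11) were higher, between 3.90 and 4.05 in transformed and 4.01 and 4.12 in untransformed cells, with no call. Those of epithelium (11) lay between 3.84 and 4.29 in transformed and 3.75 and 3.85 in untransformed cells, and Krt18 was the 1 gene called higher. Cartilage and adipocyte markers (7 each) had no call. Some markers stood out on single arrays. Chrna1, a muscle acetylcholine receptor subunit, was at 3.93, 6.23 and 3.83 in transformed cells and 3.15, 3.34 and 3.68 in untransformed cells. Sox2, a factor of neural progenitors, was at 4.08, 6.08 and 3.42 in transformed cells and 3.96, 3.53 and 3.23 in untransformed cells, so both were high in transformed embryo 2. Fabp4, an adipocyte fatty acid carrier, was at 3.89, 5.18 and 6.29 in transformed cells and 3.59, 4.47 and 3.48 in untransformed cells. Tubb3, a neuronal tubulin, was at 3.86, 3.46 and 3.52 in transformed cells and 4.71, 5.77 and 6.06 in untransformed cells. None of these 4, named after their values were seen, was called in polysomal RNA.

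Set beside total RNA of the same cultures, where 1130 genes (7.62%) were called higher and 1346 (9.08%) lower, most polysomal falls were shared. Of the 134 genes lower in polysomal RNA, 125 were also called lower in total RNA and 9 were not called there. Of the 56 genes higher in polysomal RNA, 34 were also called higher in total RNA and 22 were not called, among them Odc1, Fth1, Rpa3, Lsm5, Noa1, Krt18, Nip7, Pold2, Btg2 and 4 of the 5 histones. No gene was called in opposite directions. The total RNA counts fell to 427 higher and 525 lower without embryo 1 and to 474 and 684 without embryo 2, and were 1056 and 1326 without embryo 3. Both fractions came from the same cultures, so these counts describe shared samples. Of the 1346 genes called lower in total RNA 93.3% had a negative polysomal change, and of the 1130 called higher 88.2% had a positive one.

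**Figure D4:**
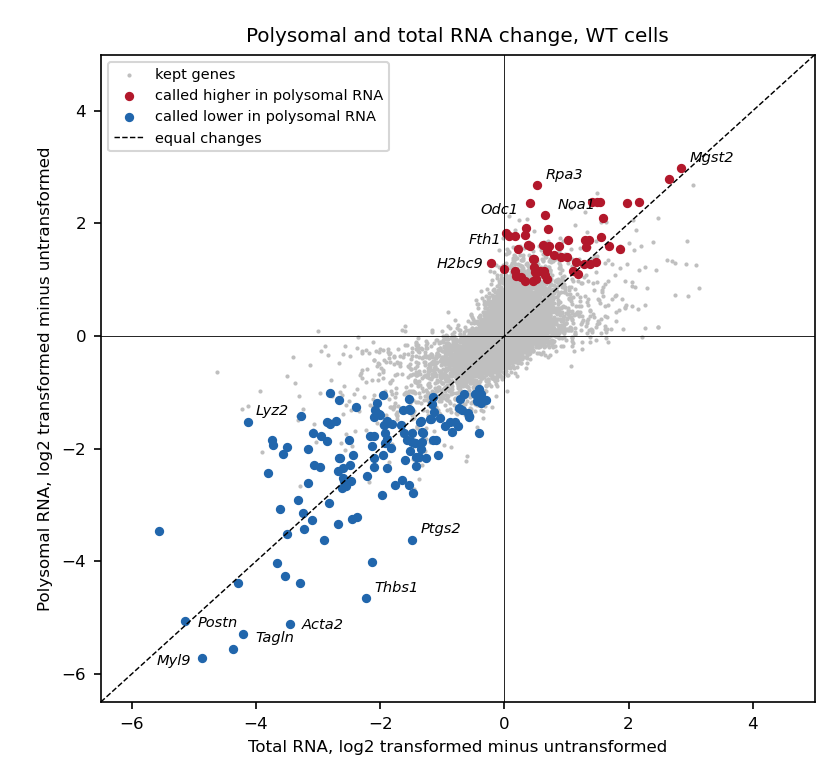
Change in polysomal RNA (vertical) against change in total RNA (horizontal), both log2 transformed minus untransformed in WT cells, for 14830 kept genes (grey) with the genes called higher (red) and lower (blue) in polysomal RNA. Falls such as Myl9 and Postn lie near the dashed line of equal changes, while Odc1, Fth1, H2bc9 and Rpa3 lie near no change in total RNA.

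The difference between the polysomal and the total RNA change was tested directly, and 75 genes (0.506%) were called with a higher and 29 (0.196%) with a lower polysomal change. Most of these genes were called in total RNA: 70 of the 75 were lower there, and 26 of the 29 were higher. Many were dim: 39 of the 75 and 20 of the 29 lay under the array median of polysomal RNA in both states. The share of all kept genes under that median in both states was not counted. Ptprz1, a receptor phosphatase, is an example, at 2.57, 2.23 and 2.79 in transformed cells and 3.32, 3.12 and 3.06 in untransformed cells of the polysomal fraction, with a total RNA change of -4.63 and a difference of 3.99 (adjusted p = 0.00138). Tnmd, Ptprd, Lrrc4c, Epha3 and Ctss, the next by p, had differences of 1.99 to 3.02 and polysomal changes that were not called. In the other direction Mgat4a (-2.13), Fndc3c1 (-1.65) and Inpp4b (-2.02) were called for a total RNA rise that the polysomal arrays did not show at a called level.

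Called in polysomal RNA as well as for the difference were 15 genes. Higher in both were Odc1, Fth1, H2bc9, Noa1 and Kif1c, the last 2 a mitochondrial GTPase and a kinesin motor. Noa1 was at 6.44, 7.22 and 5.19 in transformed cells and 3.96, 4.08 and 4.34 in untransformed cells, with a difference of 1.5 ± 0.25 (adjusted p = 0.0388). Lower in both were Acta2 (difference -1.66 ± 0.19, adjusted p = 0.0129), Thbs1 (-2.43 ± 0.29, adjusted p = 0.0140) and Ptgs2 (-2.13 ± 0.27, adjusted p = 0.0185).

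Ptgs2, the inducible cyclooxygenase that makes prostaglandins and an mRNA with AU-rich elements, was at 3.69, 5.87 and 6.34 in transformed cells and 9.05, 8.44 and 9.27 in untransformed cells of the polysomal fraction (-3.62 ± 0.57, adjusted p = 0.0268). Its total RNA was at 10.11, 11.76 and 12.55 in transformed cells and 12.98, 12.86 and 13.02 in untransformed cells and was not called (-1.48, adjusted p = 0.0645). The remaining 7, Cdc42ep3, Lyz2, Pappa, Slc4a4, Tll1, Tnfrsf11b and Tspan2, fell in polysomal RNA but fell further in total RNA.

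These differences depended on the scale of the fractions. Over all probe sets, the SD of an array lay between 1.15 and 1.44 for the polysomal fraction of WT cells and between 1.73 and 1.78 for their total RNA. With all 24 arrays quantile normalised together, 16 genes were called higher and 2 lower. Noa1 (1.44, adjusted p = 0.0465) and Lyz2 (1.60, adjusted p = 0.0415) were still called, and Thbs1 was at -0.72, Ptgs2 at -1.02 and H2bc9 at 1.13 without a call. The difference of Acta2 turned to 1.08 (adjusted p = 0.111), so its direction was not stable. Of the 8 genes called in the same direction in both tests, only Acta2 was still called without embryo 1 and only Ptgs2 without embryo 2. Without embryo 1 the counts were 18 higher and 6 lower, without embryo 2 they were 12 and 2, and without embryo 3 they were 713 and 168.

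**Figure D5:**
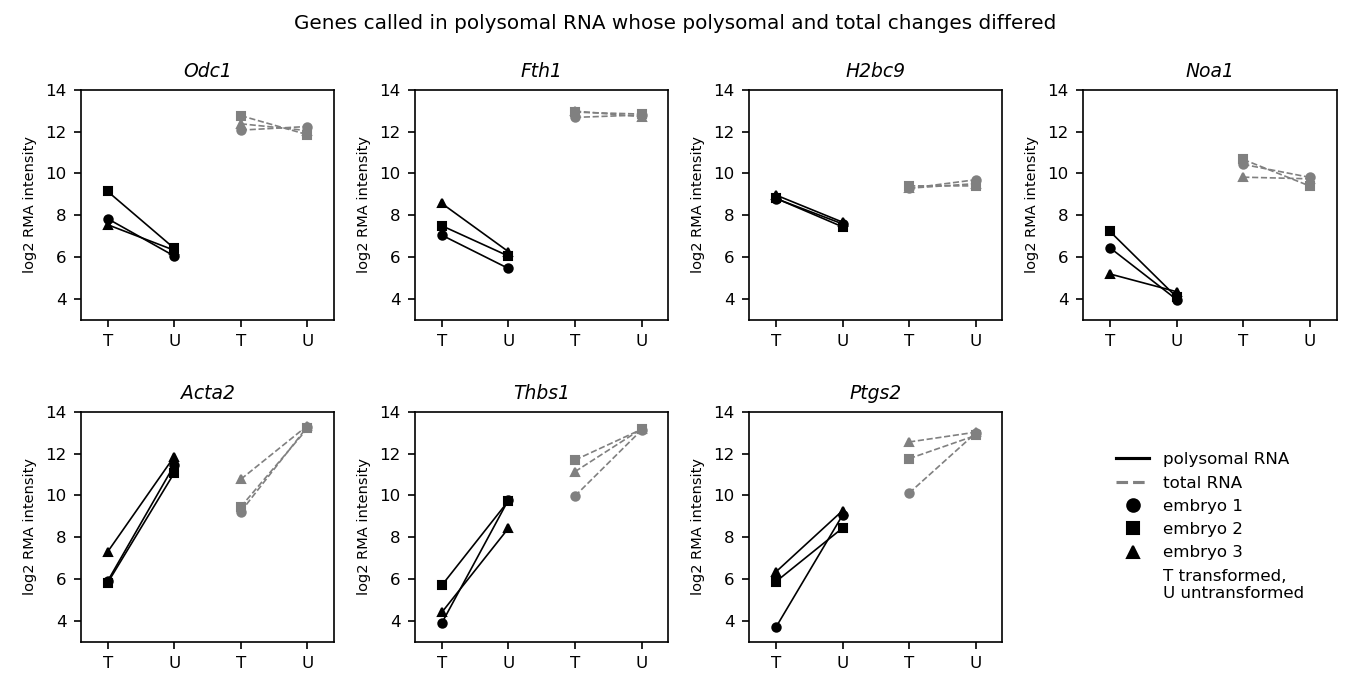
Log2 RMA intensity in transformed (T) and untransformed (U) WT cells in polysomal RNA (black, solid) and total RNA (grey, dashed) for 7 genes, 1 line per embryo. Odc1, Fth1, H2bc9 and Noa1 slope in polysomal RNA and are flatter in total RNA, where Fth1 lies between 12.68 and 12.98; the level of a gene is not comparable between fractions, since each fraction has its own scale.

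The polysomal response was also measured in Eif4e+/- cells, and no gene was called as differing between the genotypes. The difference of the transformation effects, WT minus Eif4e+/-, called 0 of 14830 genes (0%) in limma, with 314 (2.12%) at an unadjusted p under 0.05. Without WT embryo 3 that count was 2140, and still none was called. With all embryos the share was below what the threshold itself gives when no gene differs. The lack of calls therefore does not show that the genotypes responded alike. All 134 genes lower in WT had a negative change in Eif4e+/- cells (median -1.78, against -1.88 in WT) and 55 of the 56 higher genes a positive one (median 1.05, against 1.57 in WT). Over all kept genes 67.2% had the same sign in both genotypes. Of the genes called lower, 102 were called in both genotypes, 76.1% of the WT list and 52.3% of the Eif4e+/- list. For genes called higher it was 23, 41.1% and 32.4%. Both lists came from 1 fit with a shared spread per gene, so their overlap is not that of independent tests. The WT list was chosen for its WT changes, so the smaller medians in Eif4e+/- cells cannot be read for or against a difference.

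Egln3 had the smallest p for a larger WT change, 2.10 in WT and 0.44 in Eif4e+/- cells, and Tagln for a larger WT fall, -5.29 in WT and -3.29 in Eif4e+/- cells. Neither difference was called (smallest adjusted p over all genes 1.00), and they are given as values. Myl9 (-5.72 in WT, -3.95 in Eif4e+/- cells) and Fgf7 (-2.79 in WT, -0.46 in Eif4e+/- cells) were also among the 5 with the smallest p for a lower WT value.

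No gene was called among 29 ATF4 stress response genes, 27 cholesterol and fatty acid synthesis genes and 5 measured nuclear noncoding RNAs. The ATF4 median was -0.13, and -0.26 without embryo 1; the cholesterol median was 0.06. The noncoding RNAs had medians of 0.30, 0.25 and -0.62 in embryos 1 to 3 and of 0.04 in the fit, or 0.27 without embryo 3. Ddit4, an mTOR inhibitor of the ATF4 list, came nearest, at 7.36, 7.20 and 6.87 in transformed cells and 5.23, 5.75 and 6.14 in untransformed cells (1.44 ± 0.29, adjusted p = 0.0637). The 24 interferon response genes had a median of 0.01 and 1 gene called lower, Ddx58, the RNA sensor RIG-I (-0.95 ± 0.17, adjusted p = 0.0467), whose groups overlapped. Ifitm3, an antiviral membrane protein, was the brightest named gene of that list, at 11.83, 12.19 and 12.07 in transformed cells and 11.05, 11.82 and 11.45 in untransformed cells, and did not pass (0.59 ± 0.18, adjusted p = 0.170).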

How the data were processed

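The authors deposited log2 RMA intensities per probe set, per the submitters' processing notes and the series description; the RMA version, chip definition and filters are not given in the sources used here. From these values, probe sets with 1 gene symbol in the platform annotation were used (20777 of 25668; 232 carried several symbols and 4659 none). The brightest probe set stood for each of 19661 genes, and genes above the 40th percentile of their array on at least 3 of 24 arrays were kept (14830). No intensity was rescaled. The number of arrays limits the precision, since arrays hold no counts.

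Transformation effects were fitted with limma 3.58.1 (lmFit, eBayes) in R 4.3.3 on all 12 polysomal arrays, with 1 effect per genotype, the embryo as a block, 4 residual degrees of freedom and Benjamini-Hochberg adjustment. Total RNA and polysomal minus total values of the same cultures were fitted alike. SE is that of the limma fit. The embryo block follows the titles, which give both states of an embryo the same number; the 2 states of a WT embryo, each taken relative to its group mean, had correlations of -0.119, -0.052 and -0.438 (embryos 1 to 3), against 0.062, 0.019 and 0.053 for Eif4e+/- embryos. On simulated data with 14830 genes this polysomal fit recovered 44% of changes of 1 log2 unit and 96% of changes of 2 units, with 11 false calls. The simulated noise was independent for each gene and array. These figures therefore do not cover shifts shared by many genes of an array, such as the reversed spread of embryo 3.

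Genes were named as the 12 largest called rises and 12 largest called falls with embryos and groups in one direction, the 4 smallest p per list (39 lists), Myc, Ras and eIF4F genes, the 6 smallest p each way for polysomal minus total and the 5 smallest p each way for WT minus Eif4e+/-; other genes named were chosen after their values were seen. The members, lists and tests were chosen with earlier results of these data known. Promoter sequences came from RefSeq (GRCm38.p6).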

Additional observations from a re-analysis of the deposited data

How the results depend on the processing

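The 190 called genes kept their direction under every alternative tried (189 of 189 tested under a filter on polysomal level). Leaving out 1 embryo could not change it, since each gene had moved the same way in all 3 embryos. The counts of genes called higher and lower in polysomal RNA were 56 and 134. They stood at 2 and 9 with the WT arrays alone, which leaves 2 residual degrees of freedom, at 154 and 223 with no replicate block, at 107 higher with a random replicate block, at 115 and 205 after quantile normalization, at 103 higher after centring on array medians, and at 288 and 270 with array weights. Genes higher made up 29.5% of the calls, and 35.9% after quantile normalization, 37.9% after centring, 51.6% with array weights, 18.2% with WT arrays alone, and 19.0%, 8.0% and 74.5% without embryos 1, 2 and 3. Leaving out 1 WT embryo gave 2 to 1293 higher and 17 to 442 lower. Without the block and without the WT arrays of lowest spread (an alternative chosen after seeing the data), 86 were higher. Of the named genes 2 lost and 23 gained a call without the block.

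For polysomal minus total, 75 higher and 29 lower became 129 and 59 with no replicate block, 16 and 2 after quantile normalization of 24 arrays, 10 and 4 with a filter on polysomal level (chosen after seeing the data), and 12 to 713 and 2 to 168 when 1 embryo was left out; Acta2 turned to 1.08. In total RNA, leaving out 1 embryo gave 427 to 1056 higher and 525 to 1326 lower (also chosen after seeing the data). WT minus Eif4e+/- stayed at 0 calls under every alternative run. The filter settings none, mean of probe sets, and trend with robust fitting moved neither count of all called genes by over 1.5 times, though trend with robust fitting took histones called higher to 1 (5 otherwise) and ribosome biogenesis genes to 0 (1 otherwise). The causes were not tested. Dim genes limit these results: 91.1% of the higher and 91.0% of the lower calls had a polysomal level above the median of the kept genes, and RMA values near the array median understate changes.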
